A study of Mus musculus with 4 samples.

Results

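Leukotrienes and prostaglandins are lipid signals made from arachidonic acid, and 8 genes of these pathways were described across single-cell RNA-seq libraries of mesenchymal progenitors: Alox5ap, Alox5, Ltc4s, Ptgs1, Ptgs2, Ptges, Ptgis and Ptger4. They are 8 of the 32285 genes counted, and they were chosen by name with earlier values of their level and share of cells in these libraries known, so the levels are given as a description and carry no test. The cells were C3H 10T1/2, a mouse embryonic line of mesenchymal progenitor cells (MPC) grown as the established Clone 8 line, and all of them also carried a lentiviral transgene under the EF1 promoter, selected with puromycin, for epitope-tagged histone H3.1 that was wild type (H3WT) or had arginine replaced by cysteine at residue 26 (H3R26C). The endogenous H3 genes were left in place in both genotypes, so H3R26C was added to normal H3 and did not replace it. Each genotype received a brief pulse of 5-Azacitidine (5-Aza), an inhibitor of DNA methyltransferases, followed by weeks of culture, or DMSO vehicle, and the time of collection of the DMSO cells is not stated. Each of the 4 conditions has 1 library, so there is no replicate, no test between conditions was possible, and cells were not treated as replicates.

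After cells with at least 5000 UMIs (unique molecular identifiers, which count RNA molecules), at least 1500 genes and at most 20% mitochondrial UMIs were kept, the libraries held 3710 to 7619 cells and 84060490 to 110712425 UMIs. The median was 22420 UMIs per cell in H3WT and 16598 in H3R26C with DMSO, against 13149 and 13123 with 5-Aza. Between 24 and 58 kept barcodes were shared by any pair of libraries, at most 1.11% of the smaller one. Of 9 markers of mesenchymal progenitors, 8 were at 1 CPM (count of a gene per 1000000 UMIs) or more in each library, which fits the cell type that the labels give. Of 12 markers of skeletal muscle, 12 reached this level in both 5-Aza libraries, against 2 and 3 in H3WT and H3R26C with DMSO. Of 8 adipocyte markers, 6 and 8 reached it in H3WT and H3R26C with DMSO, and 8 and 7 with 5-Aza, so this level alone does not single out progenitors. Levels are given in CPM with exact 95% Poisson intervals, and ratios with the exact interval for a pair of counts. Shares of cells are given from cells that had all been thinned to the same depth of 5000 UMIs, with exact binomial intervals, and all intervals cover counting error only.

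Arachidonic acid is freed from membranes by phospholipases and then enters one of several routes. In the lipoxygenase route, the membrane protein encoded by Alox5ap (FLAP) presents it to the lipoxygenase encoded by Alox5, and leukotriene C4 synthase, encoded by Ltc4s, joins the product to glutathione to give the first cysteinyl leukotriene. In the cyclooxygenase route, the enzymes encoded by Ptgs1 and Ptgs2 make prostaglandin H2, from which Ptges makes prostaglandin E2 and Ptgis makes prostacyclin, and Ptger4 encodes one of the receptors for prostaglandin E2. The lipoxygenase genes are best known from leukocytes, whereas cyclooxygenases and prostacyclin synthase are common in fibroblasts and smooth muscle.

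The genes lie on GRCm38 chromosomes 5 (Alox5ap), 6 (Alox5), 11 (Ltc4s), 1 (Ptgs2) and 15 (Ptger4), and on chromosome 2 for Ptgs1, Ptges and Ptgis. 5-Aza acts on methylation at CpG dinucleotides, which is not analysed here, and the promoters of 4 genes with low counts in the H3WT DMSO library are shown for their CpG content. RefSeq windows on GRCm38.p6 of 300 bases, 250 before and 50 after the start of transcription, were found for 6 of the 8 genes. The sequences below are written 5′ to 3′ on the strand of the gene, which is the minus strand for all 4, and the capitals mark each CpG. The Ptges window lies inside the interval given for that gene below, which starts further upstream. The windows are at chr6:116461129-116461428 for Alox5, chr11:50238483-50238782 for Ltc4s, chr2:30903248-30903547 for Ptges and chr15:5244138-5244437 for Ptger4.
Alox5 promoter: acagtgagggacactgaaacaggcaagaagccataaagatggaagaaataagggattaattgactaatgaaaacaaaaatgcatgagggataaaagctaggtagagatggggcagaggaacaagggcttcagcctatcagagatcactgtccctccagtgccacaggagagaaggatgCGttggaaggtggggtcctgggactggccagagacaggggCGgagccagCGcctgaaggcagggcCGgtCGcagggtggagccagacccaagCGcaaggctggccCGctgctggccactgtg
Ltc4s promoter: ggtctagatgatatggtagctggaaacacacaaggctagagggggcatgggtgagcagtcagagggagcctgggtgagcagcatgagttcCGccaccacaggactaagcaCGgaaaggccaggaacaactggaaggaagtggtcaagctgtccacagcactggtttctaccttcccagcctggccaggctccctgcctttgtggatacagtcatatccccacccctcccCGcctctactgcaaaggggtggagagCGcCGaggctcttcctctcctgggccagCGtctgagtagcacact
Ptges promoter: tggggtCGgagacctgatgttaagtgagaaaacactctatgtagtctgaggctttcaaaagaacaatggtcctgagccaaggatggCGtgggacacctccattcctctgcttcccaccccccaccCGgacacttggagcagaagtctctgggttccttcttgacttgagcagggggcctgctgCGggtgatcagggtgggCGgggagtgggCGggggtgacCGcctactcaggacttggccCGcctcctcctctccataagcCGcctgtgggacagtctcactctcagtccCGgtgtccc
Ptger4 promoter: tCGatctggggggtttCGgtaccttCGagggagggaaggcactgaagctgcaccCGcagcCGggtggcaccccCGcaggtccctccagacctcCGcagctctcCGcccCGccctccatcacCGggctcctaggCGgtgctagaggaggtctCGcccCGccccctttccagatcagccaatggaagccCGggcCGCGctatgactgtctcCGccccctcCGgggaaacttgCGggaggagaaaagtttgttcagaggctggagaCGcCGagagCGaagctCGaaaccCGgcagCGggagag

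The Alox5 promoter held 7 CpG, that of Ltc4s 6, that of Ptges 10 and that of Ptger4 25. Of the members whose windows are not printed, Ptgs1 held 6 and Ptgs2 held 16. The median over all 32851 promoters of this length was 7, with quartiles of 3 and 20, so Ptger4 lay above the upper quartile and the others between the quartiles. The GC box GGGCGG was searched on both strands, and sites that overlap another were not counted. It occurred 1 time in Alox5 and Ptgs2, 2 times in Ptges and 3 times in Ptger4, where a further site overlaps a counted one. Neither Ltc4s nor Ptgs1 held it, while 35.7% of all promoters did. The TATA box TATAAA was found in none of the 6 windows and in 13.6% of all promoters. The core of the cyclic AMP response element, CGTCA, was found in the Ptgs2 window alone among these 6, and in 20.8% of all promoters.

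All 8 genes had their highest level in the H3R26C library treated with 5-Aza. The order of the other 3 libraries differed between genes, and Ptgs1 and Ptgis had 2181 or more UMIs in each library, whereas Alox5, Ltc4s and Ptger4 had 12 or fewer in each DMSO library.

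**Figure D1:**
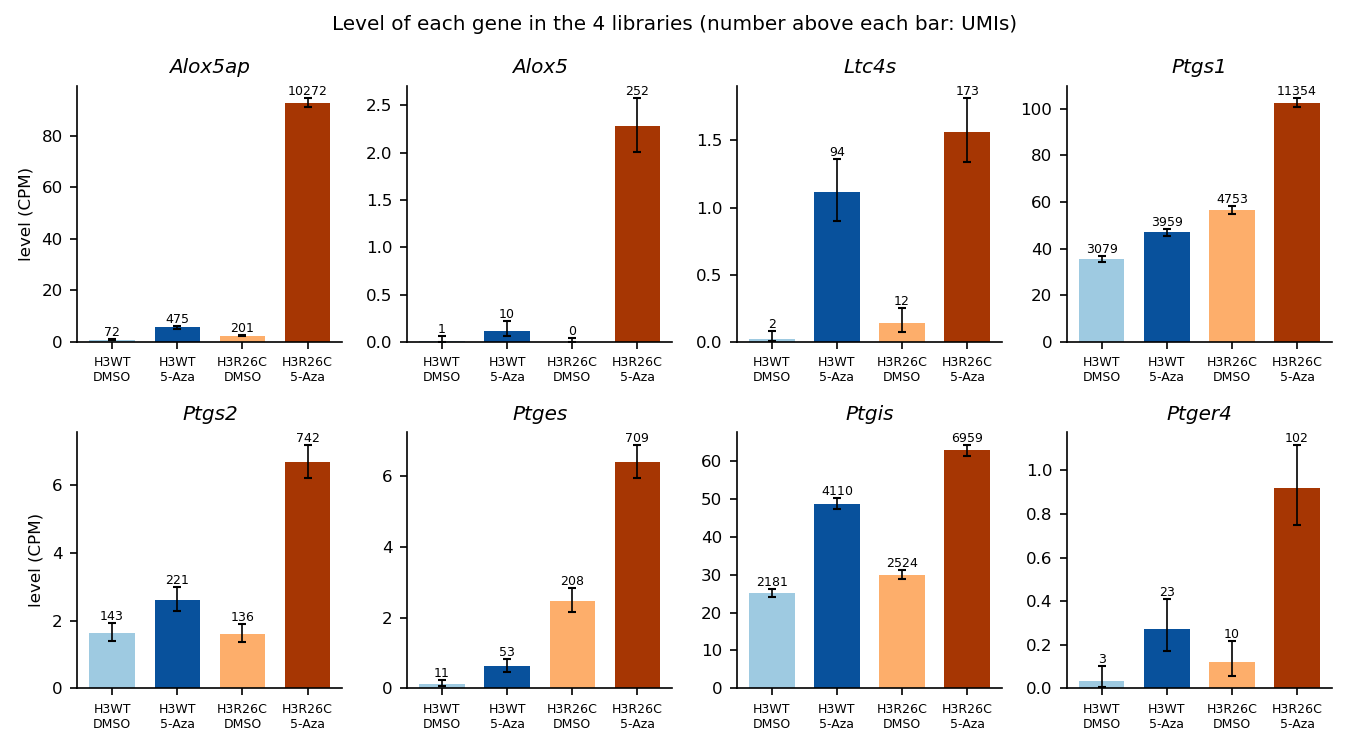
Each panel shows the level of 1 gene in CPM (vertical axis, linear from 0 and scaled per panel) in the 4 libraries, with exact 95% Poisson intervals as error bars and the UMIs of that gene above each bar. The highest bar is that of H3R26C with 5-Aza in each panel, with Alox5ap at 92.8 CPM against 5.63 CPM or less in the other 3 libraries.

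Alox5ap (ENSMUSG00000060063, chromosome 5, 149264767 to 149288153) measured 0.829 CPM (0.649 to 1.04, 72 UMIs) for H3WT and 2.39 CPM (2.07 to 2.75, 201 UMIs) for H3R26C under DMSO. After 5-Aza it measured 5.63 CPM (5.14 to 6.16, 475 UMIs) for H3WT and 92.8 CPM (91.0 to 94.6, 10272 UMIs) for H3R26C. The intervals of the 4 libraries did not overlap. The ratio of 5-Aza to DMSO was 6.80 (5.29 to 8.83) in H3WT and 38.8 (33.7 to 44.8) in H3R26C. These responses differed by 2.51 on the log2 scale, with a counting interval of 2.10 to 2.92. Between genotypes, H3R26C stood 2.89 times (2.19 to 3.83) above H3WT with DMSO and 16.5 times (15.0 to 18.1) above it with 5-Aza.

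After thinning, 27.6% (26.6% to 28.7%) of the H3R26C cells treated with 5-Aza had a UMI of Alox5ap, against 2.49% (2.11% to 2.91%) of the H3WT cells, and 0.910% and 0.324% of the H3R26C and H3WT cells with DMSO. Without thinning, the share in H3R26C with 5-Aza was 46.1%. Had the thinned UMIs of that library been spread evenly over its cells, 36.8% of cells would have held at least 1, so they were gathered in fewer cells than an even spread gives. In the same library 318 cells, or 4.17%, held 3 or more thinned UMIs of Alox5ap, against 3 cells of H3WT after 5-Aza, and 1 cell of H3R26C and 0 of H3WT under DMSO.

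Alox5 (ENSMUSG00000025701, chromosome 6, 116410077 to 116461178) was near the limit of detection in 3 libraries. It had 1 UMI in H3WT with DMSO, 10 UMIs or 0.119 CPM (0.0568 to 0.218) in H3WT with 5-Aza, and 0 UMIs in H3R26C with DMSO. A floor of 3 UMIs, used for a count of 0, is 0.0357 CPM in that library, or 0.0635% of cells with a UMI, and the exact 95% upper limits are 0.0439 CPM and 0.0780%. In H3R26C with 5-Aza it had 252 UMIs, or 2.28 CPM (2.00 to 2.58), and 0.840% (0.648% to 1.07%) of thinned cells had a UMI. Against that floor, the measured level was at least 63.8-fold higher, a value that does not carry the counting error of either library. It was 19.2 times (10.3 to 40.5) that of H3WT with 5-Aza.

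Ltc4s (ENSMUSG00000020377, chromosome 11, 50236461 to 50238616) was higher with 5-Aza in both genotypes. Under DMSO it measured 0.0230 CPM (2 UMIs) for H3WT and 0.143 CPM (12 UMIs) for H3R26C, and after 5-Aza 1.11 CPM (0.901 to 1.36, 94 UMIs) and 1.56 CPM (1.34 to 1.81, 173 UMIs). The ratio of 5-Aza to DMSO was 48.4 in H3WT, with an interval of 13.0 to 406 because of the 2 UMIs, and 11.0 (6.11 to 21.6) in H3R26C. However, 9 of the 12 UMIs of H3R26C with DMSO came from 1 cell, and without the top cell of each library the ratios were 81.4 (14.2 to 3254) in H3WT and 42.3 (14.2 to 207) in H3R26C, on 1 and 3 UMIs with DMSO. No difference between these responses is read from such counts. Between genotypes after 5-Aza the ratio was 1.40 (1.09 to 1.82).

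Whether cells with Alox5 also tended to hold the other 2 lipoxygenase genes could not be decided from these counts. In H3R26C with 5-Aza, 64 thinned cells held Alox5. Of these, 15 also held Alox5ap, a share of 23.4% beside 27.6% of all cells, and 0 of the 64 held Ltc4s. Only 52 thinned cells of that library, or 0.68%, held Ltc4s, so 64 cells are too few to show a joint presence or its absence. Over the pairs of members and the 4 libraries, Pearson's r across thinned cells ran from -0.0354 to 0.0360, weak values from which nothing is read in counts this sparse. In that library 32.0% of thinned cells held none of the 8 genes, 43.6% held 1, 20.7% held 2 and 3.53% held 3, whereas 63.1% of the H3WT cells with 5-Aza and 64.7% and 75.4% of the H3R26C and H3WT cells with DMSO held none.

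Because the lipoxygenase genes are known from leukocytes, 14 leukocyte markers were summed in each library. Their sum was 11.8 CPM for H3WT and 12.9 CPM for H3R26C under DMSO, and 33.3 and 45.6 CPM after 5-Aza, with 4 to 6 of the 14 genes at 0 in each library. Tyrobp, Cd52 and the mast cell gene Ms4a2 were at 0 in all 4 libraries. Ptprc, which encodes the pan-leukocyte antigen CD45, had 0 UMIs in both DMSO libraries, and 20 UMIs in H3WT and 140 UMIs in H3R26C with 5-Aza. Fcer1g, an Fc receptor subunit, had 3 and 10 UMIs under DMSO and measured 11.9 CPM for H3WT and 17.8 CPM for H3R26C after 5-Aza, the largest part of the change in the sum. The part of leukocyte-like RNA in the Alox5ap, Alox5 and Ltc4s levels was not tested.

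Of the cyclooxygenases, Ptgs1 (ENSMUSG00000047250, chromosome 2, 36230426 to 36252272), the constitutive enzyme, measured 35.4 CPM (34.2 to 36.7) for H3WT and 56.5 CPM (55.0 to 58.2) for H3R26C under DMSO, and 46.9 CPM (45.5 to 48.4) and 103 CPM (101 to 104) after 5-Aza. The 4 intervals did not overlap, and both H3R26C libraries lay above both H3WT libraries. The ratio of 5-Aza to DMSO was 1.32 (1.26 to 1.39) in H3WT and 1.81 (1.75 to 1.88) in H3R26C, and the responses differed by 0.45 on the log2 scale (0.37 to 0.54). Its share of thinned cells was 14.2% under DMSO and 19.5% after 5-Aza for H3WT, and 23.2% and 37.5% for H3R26C.

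Ptgs2 (ENSMUSG00000032487, chromosome 1, 150100031 to 150108227), the inducible enzyme, measured 1.65 CPM (1.39 to 1.94) for H3WT and 1.62 CPM (1.36 to 1.91) for H3R26C under DMSO, levels whose ratio of 0.983 (0.771 to 1.25) includes 1. After 5-Aza it measured 2.62 CPM (2.29 to 2.99) for H3WT and 6.70 CPM (6.23 to 7.20) for H3R26C. The ratio of 5-Aza to DMSO was 1.59 (1.28 to 1.98) and 4.14 (3.45 to 5.01), a difference of 1.38 on the log2 scale (0.98 to 1.78). Single cells weighed on the H3WT values, since 1 cell held 30 of the 143 UMIs with DMSO and another 23 of the 221 UMIs with 5-Aza, while no cell of H3R26C with 5-Aza held more than 11 of 742.

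Ptges (ENSMUSG00000050737, chromosome 2, 30889471 to 30929863), which makes prostaglandin E2 downstream of the cyclooxygenases, separated the genotypes also without 5-Aza. Under DMSO it measured 0.127 CPM (0.0632 to 0.227, 11 UMIs) for H3WT and 2.47 CPM (2.15 to 2.84, 208 UMIs) for H3R26C, a ratio of 19.5 (10.7 to 39.8). After 5-Aza it measured 0.628 CPM (0.471 to 0.822, 53 UMIs) and 6.40 CPM (5.94 to 6.89, 709 UMIs), a ratio of 10.2 (7.70 to 13.7). The H3R26C library with DMSO was thus above the H3WT library with 5-Aza. Its ratio of 5-Aza to DMSO was 4.96 (2.56 to 10.5) for H3WT and 2.59 (2.21 to 3.04) for H3R26C, and these overlapped. The share of thinned cells was 0.108% under DMSO and 0.234% after 5-Aza for H3WT, and 1.31% and 2.66% for H3R26C.

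Ptgis (ENSMUSG00000017969, chromosome 2, 167191805 to 167240604), prostacyclin synthase, followed treatment more than genotype. Under DMSO it measured 25.1 CPM (24.1 to 26.2) for H3WT and 30.0 CPM (28.9 to 31.2) for H3R26C, and after 5-Aza 48.7 CPM (47.2 to 50.2) and 62.9 CPM (61.4 to 64.4). Its ratio of 5-Aza to DMSO was 1.94 (1.84 to 2.05) in H3WT and 2.09 (2.00 to 2.19) in H3R26C, and these responses differed by 0.11 on the log2 scale (0.0095 to 0.21). The ratio of H3R26C to H3WT was 1.20 (1.13 to 1.27) with DMSO and 1.29 (1.24 to 1.34) with 5-Aza.

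Ptger4 (ENSMUSG00000039942, chromosome 15, 5206661 to 5244187), the prostaglandin E2 receptor EP4, was the lowest of the prostaglandin genes here in UMIs. It had 3 and 10 UMIs in H3WT and H3R26C with DMSO, or 0.0345 and 0.119 CPM, whose ratio of 3.45 (0.887 to 19.5) includes 1. With 5-Aza it had 23 and 102 UMIs, or 0.273 CPM (0.173 to 0.409) and 0.921 CPM (0.751 to 1.12). The ratio of 5-Aza to DMSO was 7.90 (2.39 to 41.1) in H3WT and 7.75 (4.04 to 16.6) in H3R26C.

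To set these values beside all other genes, a gene was counted as at least 2-fold higher or lower where the log2 ratio of CPM + 1 was at least 1 in size and the mean of the 2 libraries was at least 1 CPM. The minimum left 4 of the 8 members in 5-Aza against DMSO in H3WT, where 1 (Alox5ap) was higher and 0 were lower, while 4.26% of all 12306 genes tested were higher and 0.276% lower. In H3R26C, 6 members were tested for 5-Aza against DMSO, and 5 (Alox5ap, Alox5, Ptgs2, Ptges and Ptgis) were higher and 0 lower, against 8.04% and 3.09% of 12551 genes. For H3R26C against H3WT in DMSO, 5 were tested, and 1 (Ptges) was higher and 0 lower, against 1.82% and 0.589% of 12052 genes. After 5-Aza, 7 were tested between genotypes, and 5 (Alox5ap, Alox5, Ptgs1, Ptgs2 and Ptges) were higher and 0 lower, against 4.79% and 2.64% of 12669 genes. The members were chosen with these contrasts known and some passed the minimum only through the library where they were high, so nothing is read from these counts. Ptgis in H3R26C, at a log2 ratio of 1.04, lay close to the limit, and it and Alox5 were no longer counted when cells with muscle markers were left out, which gave 3 of 5. Ptges for 5-Aza in H3R26C, at 1.09, also lay close to the limit, as did Ptgs2 and Ptgs1 for genotype after 5-Aza, at 1.09 and 1.11.

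**Figure D2:**
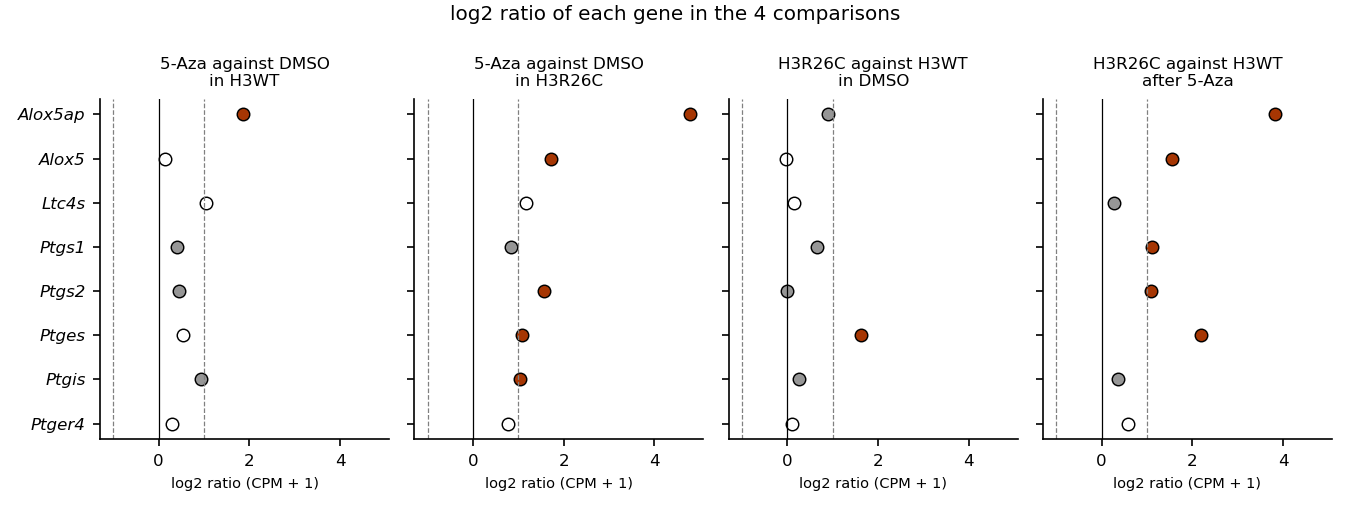
The log2 ratio of CPM + 1 (horizontal axis) is shown for the 8 genes (rows) in the 4 comparisons, with dashed lines at -1 and 1. White points have a mean below 1 CPM, and of the others red points are at or past a dashed line and grey points between the lines. Alox5ap reaches 4.79 for 5-Aza against DMSO in H3R26C, and the Alox5 point there stands against a library with 0 UMIs and depends on the added 1. For H3R26C against H3WT in DMSO Alox5ap is grey at 0.89, although its ratio without the added 1 was 2.89.

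After 5-Aza both genotypes held cells with muscle markers and cells with adipocyte markers, and the members were compared between such cells and the rest within each library. A cell was placed in a muscle gate if at least 6 of 12 muscle markers had a UMI after thinning, and in an adipocyte gate if at least 3 of 8 adipocyte markers had one. The muscle gate held 376 cells (6.27%) of H3WT and 471 cells (6.18%) of H3R26C with 5-Aza, and 0 cells of either DMSO library. The adipocyte gate held 209 cells (3.49%) of H3WT and 79 cells (1.04%) of H3R26C with 5-Aza. Under DMSO it held 64 cells (1.73%) of H3WT and 55 cells (1.16%) of H3R26C, so in H3R26C its share was no higher after 5-Aza. None of the 8 genes was used to form a gate.

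Alox5 was mainly found in the muscle gate. In H3R26C with 5-Aza this gate held 182 of the 252 Alox5 UMIs, or 72.2%, and the level was 23.6 CPM (20.3 to 27.3) inside and 0.680 CPM (0.530 to 0.859) outside, a ratio of 34.8 (26.2 to 46.5). After thinning, 8.28% of the cells inside and 0.350% of those outside had a UMI, at median depths of 13836 and 13096 UMIs before thinning. In H3WT with 5-Aza the gate held 6 of 10 UMIs, with 1.17 CPM (0.431 to 2.55) inside and 0.0505 CPM (0.0138 to 0.129) outside. Within the muscle gates alone, the H3R26C level therefore lay above the H3WT level with intervals that did not overlap, although the gates held nearly the same share of cells. The level was higher with more muscle markers, from 0.344 CPM in H3R26C cells with 0 or 1 markers to 37.3 CPM (31.6 to 43.7) in the 204 cells with 9 to 12 markers, in 33.3% of which it was found without thinning. The summed leukocyte markers were at 44.0 CPM inside and 45.7 CPM outside the muscle gate of the H3R26C library. Their part in the Alox5 level was not tested.

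The level of Ptgis was higher and that of Ptgs1 lower in cells with more muscle markers. Ptgis measured 73.2 CPM inside and 47.2 CPM outside the muscle gate in H3WT with 5-Aza, a ratio of 1.55 (1.39 to 1.73), and 121 and 58.5 CPM in H3R26C, a ratio of 2.08 (1.94 to 2.22). It reached 90.5 CPM (78.3 to 104) in H3WT and 162 CPM (150 to 175) in H3R26C in cells with 9 to 12 markers. A single muscle-gate cell of H3R26C held 51 of the 6959 Ptgis UMIs, and without it the ratio was 1.96. The share of thinned cells with Ptgis was 18.9% (15.05% to 23.2%) inside and 17.9% (16.9% to 19.0%) outside the gate in H3WT. In H3R26C this share was 27.4% (23.4% to 31.7%) inside and 23.5% (22.5% to 24.5%) outside. These intervals overlapped in both libraries, so a higher share of cells with Ptgis is not read from them. Ptgs1 was lower inside the muscle gate in both libraries, at 29.3 against 48.1 CPM in H3WT, a ratio of 0.610 (0.515 to 0.719), and at 44.9 against 107 CPM in H3R26C, a ratio of 0.420 (0.376 to 0.468). In cells with 9 to 12 markers it measured 21.6 CPM (15.9 to 28.7) for H3WT and 29.8 CPM (24.7 to 35.5) for H3R26C, levels whose intervals overlap, whereas the H3R26C level was higher in cells with 0 or 1 markers, at 109 against 51.1 CPM. For Ptgs2 the muscle gate of H3WT held 10.2 CPM against 2.13 CPM outside, but 1 cell carried 23 of its 52 UMIs there, and without that cell the ratio fell from 4.77 to 2.66. In H3R26C the Ptgs2 ratio was 1.15 (0.870 to 1.51), which includes 1.

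In H3R26C with 5-Aza, cycling cells and cells with interferon-stimulated genes also differed from the rest for some members, by gates of at least 3 of 8 cycling genes and at least 4 of 8 interferon-stimulated genes. Ptgs2 was at 9.62 CPM (8.38 to 11.0) in the cycling gate and 5.97 CPM (5.47 to 6.50) outside it. Ptgis was lower in the cycling gate, at 43.6 CPM (40.9 to 46.5) against 67.7 CPM (66.0 to 69.4), and in the adipocyte gate, at 24.4 CPM (16.1 to 35.5) against 63.2 CPM (61.8 to 64.8). Ptgs1 was at 116 CPM (112 to 119) inside and 94.9 CPM (92.6 to 97.2) outside the interferon gate, and Alox5 at 0.863 CPM (0.601 to 1.20) and 3.09 CPM (2.70 to 3.53). The cells outside the interferon gate include cells of the muscle gate, which held most Alox5 UMIs. In cells outside all gates Alox5 was at 0.626 CPM (0.422 to 0.894), which overlaps its level in the interferon gate. Ptges was at 14.4 CPM (8.26 to 23.5) in the adipocyte gate, on 16 UMIs, against 6.32 CPM (5.86 to 6.81) outside it, and at 3.50 CPM (2.31 to 5.10) in the muscle gate against 6.62 CPM (6.13 to 7.14). For Ptger4 the intervals inside and outside overlapped for each of these 4 gates.

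**Figure D3:**
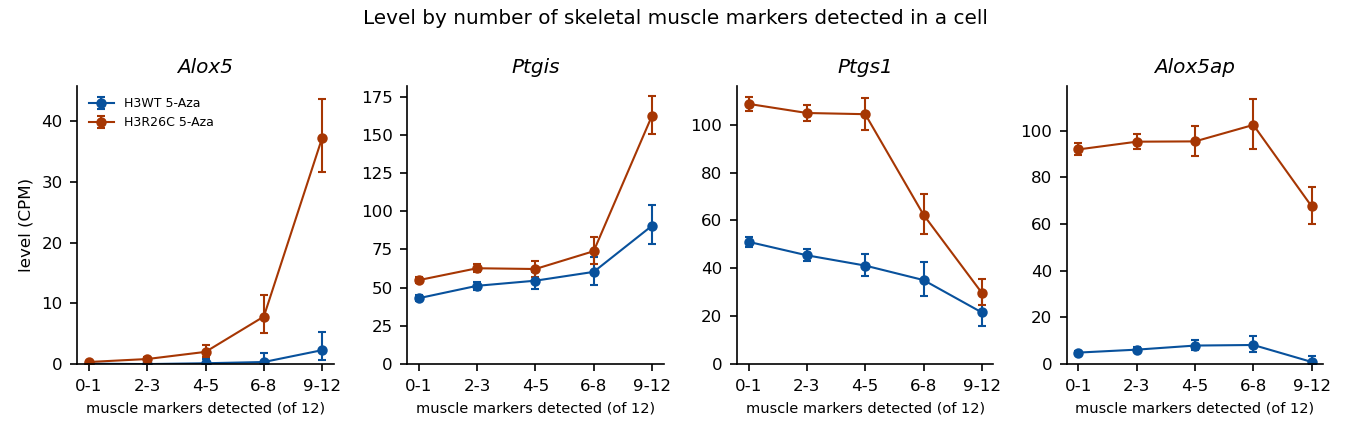
The level in CPM (vertical axis, linear from 0) is plotted against the number of the 12 skeletal muscle markers found in a thinned cell (horizontal axis), for H3WT (blue) and H3R26C (red) with 5-Aza, with exact 95% Poisson intervals. In H3R26C cells with 9 to 12 markers, Alox5 and Ptgis have their highest points at 37.3 and 162 CPM and Ptgs1 its lowest at 29.8 CPM, while Alox5ap is at 67.5 CPM or more in each H3R26C bin.

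With 5-Aza, Ltc4s was at a higher level in adipocyte-gate cells than outside them, but these cells held most of its UMIs in H3WT only. In H3WT with 5-Aza this gate held 60 of the 94 UMIs, or 63.8%, at 19.6 CPM (14.9 to 25.2) inside and 0.418 CPM (0.290 to 0.584) outside, a ratio of 46.8 (30.3 to 73.6). The 29 cells with 5 to 8 adipocyte markers held 55 of these UMIs, a level of 106 CPM (79.7 to 138), and 16 of the 29 cells had a UMI. In H3R26C with 5-Aza the gate held 19 of 173 UMIs, at 17.2 CPM (10.3 to 26.8) inside and 1.41 CPM (1.19 to 1.65) outside, a ratio of 12.2 (7.16 to 19.7), and 65 of the 79 cells, those with 3 or 4 markers, held 1 of the 19. Without the top cell of each library, with 15 UMIs in H3WT and 6 in H3R26C, these ratios were 35.1 and 8.36. The levels inside the gate overlapped between genotypes, and the levels outside it did not, with the higher one in H3R26C. Under DMSO, 11 of the 12 UMIs of H3R26C were in this gate, but 9 of them came from 1 cell, and 1 of the 2 UMIs of H3WT was. The summed leukocyte markers were at 57.2 CPM inside and 32.4 CPM outside the adipocyte gate of H3WT with 5-Aza, and at 50.6 and 45.5 CPM in H3R26C, and their part in the Ltc4s level was not tested.

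Alox5ap was detected in cells of each gate, at levels that differed between gates. In H3R26C with 5-Aza it was at 83.7 CPM (77.4 to 90.4) in the muscle gate, 43.4 CPM (32.0 to 57.5) in the adipocyte gate and 91.6 CPM (88.9 to 94.3) in cells outside all gates. The ratio of the adipocyte gate to all other cells was 0.465 (0.343 to 0.617). It was at 76.3 CPM (72.8 to 80.1) in the 1112 cells of the cycling gate, and at 107 CPM (104 to 110) inside against 84.8 CPM (82.6 to 86.9) outside the interferon gate. The interferon gate held 2753 cells, or 36.1% of that library, against 3.12% of H3WT with 5-Aza and 1.27% or less of the DMSO libraries, and its part in the levels was not tested beyond leaving it out, which left Alox5ap at 84.8 CPM. The thinned share of cells with Alox5ap lay between 21.5% and 31.4% over these gates, and was 31.4% (29.7% to 33.1%) inside against 25.5% (24.3% to 26.8%) outside the interferon gate. In barcodes of fewer than 1000 UMIs of this library, which can hold free RNA, it was at 34.5 CPM (25.9 to 44.8), and the part of free RNA in the share of cells was not tested. H3WT cells with 5-Aza had 5.09 CPM in the muscle gate, 3.27 CPM in the adipocyte gate and 5.69 CPM outside all gates, so the higher level of H3R26C was present in each of these groups of cells. In equal groups of H3R26C cells with 5-Aza of low, middle and high depth, the level was 93.1, 98.0 and 89.4 CPM. H3WT with 5-Aza had 5.69, 5.56 and 5.65 CPM in the same order. Under DMSO the level was less even, at 0.418, 0.576 and 1.20 CPM for H3WT and 1.69, 2.59 and 2.60 CPM for H3R26C. The DMSO cells were also deeper, and the part of depth in the ratios of 5-Aza to DMSO was not tested.

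Across the 7619 cells of H3R26C with 5-Aza, the genes most like Alox5ap were Enpp2 (Pearson's r = 0.27), which encodes autotaxin, an enzyme that makes the signalling lipid lysophosphatidic acid, Ly6e (r = 0.25), an interferon-inducible surface antigen, and Hopx (r = 0.24), a homeodomain cofactor. These cells share a library and its depth, and in the other 3 libraries r with these genes lay between -0.0195 and 0.0457. There, Alox5ap was held by only 12 thinned cells of H3WT with DMSO, 149 of H3WT with 5-Aza and 43 of H3R26C with DMSO. Such counts are too sparse to set r side by side, and no difference between libraries is read from it. The limit for naming a gene as alike was r of 0.2, and no gene reached it for Ptgs1, Ptgs2, Ptges or Ptgis. Split by thinned Enpp2 UMIs, a split chosen after the values were seen, Alox5ap was at 71.6 CPM in the 5970 H3R26C cells with 0, and at 91.6, 127 and 250 CPM (240 to 259) in cells with 1, 2 and 3 or more. Of the 837 cells with 3 or more, 54.5% held Alox5ap after thinning, against 23.6% of those with 0. In H3WT with 5-Aza the level was 5.81 (5.25 to 6.40), 6.23, 3.19 and 2.93 CPM (1.52 to 5.12) in the same order. The last 2 values rest on 8 and 12 Alox5ap UMIs. With 3 or more the level was below that with 0, with intervals that only just separate. In H3R26C under DMSO the Alox5ap level was 2.03 CPM (1.69 to 2.41) in cells with 0. With 1 it was 3.55 CPM (2.54 to 4.81, 41 UMIs), an interval above that with 0, and with 2 it was 2.79 CPM (1.44 to 4.87, 12 UMIs), which overlaps it. In cells with 3 or more it was 3.97 CPM (2.42 to 6.13), higher than with 0 but on 20 UMIs and with intervals that only just separate. H3WT under DMSO held 11, 0 and 3 Alox5ap UMIs in cells with 1, 2 and 3 or more, too few to set levels side by side.

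**Figure D4:**
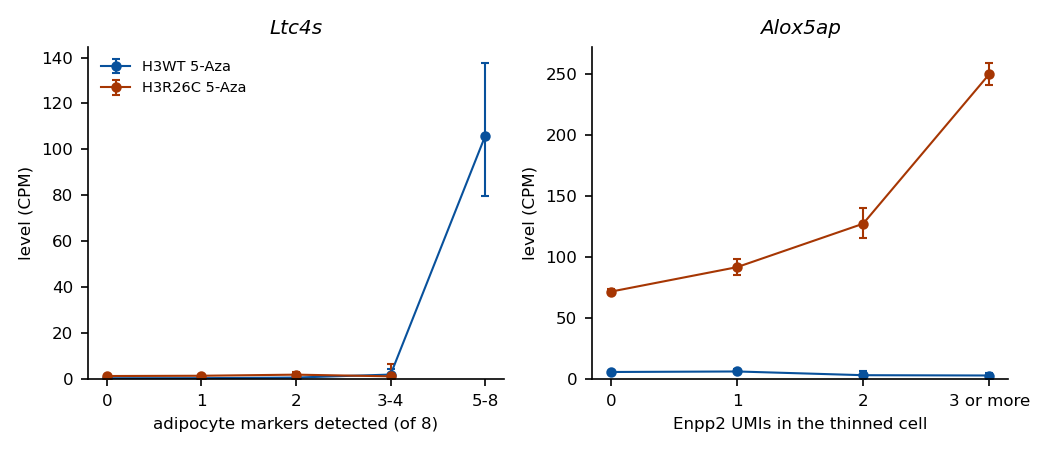
Left, the Ltc4s level in CPM by the number of the 8 adipocyte markers found in a thinned cell, where the 29 H3WT cells with 5 to 8 markers reach 106 CPM and H3R26C has too few such cells for a point. Right, the Alox5ap level in CPM by thinned Enpp2 UMIs, from 71.6 to 250 CPM in H3R26C; blue is H3WT and red H3R26C, both with 5-Aza, the vertical axes start at 0, and bars are exact 95% Poisson intervals.

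Another 56 genes of the eicosanoid pathways were listed by role, and 24 to 28 of them reached the minimum in a comparison. For 5-Aza against DMSO, 4 of 25 tested were at least 2-fold higher and 0 lower in H3WT, beside 4.26% and 0.276% of all genes. In H3R26C, 9 of 28 were higher and 1 lower, beside 8.04% and 3.09%, and the median log2 ratios were 0.33 for H3WT and 0.38 for H3R26C, against 0.035 and -0.032 over all genes tested. For H3R26C against H3WT, 3 of 24 were higher in DMSO and 4 of 28 after 5-Aza, and 0 were lower in either, with medians of 0.19 and 0.12 against 0.034 and -0.027. This list too was chosen with earlier results known. Some of its genes passed the minimum only through the library where they were high, such as Pla2g5 at 0.0119 CPM with DMSO and 2.39 CPM with 5-Aza in H3R26C. Nothing is therefore read from these counts and medians. All 5 tested prostanoid synthases outside the members were within 2-fold in each of the 4 comparisons. Of the genes past this limit in the comparisons with 3 or 4, Pla2g5 and Tbxa2r for 5-Aza in H3WT, Slco2a1 for both genotype comparisons and Dpep3 for genotype after 5-Aza were below the level set for naming, and are listed here after their values were seen.

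Among prostanoid receptors, Ptgfr, the receptor for prostaglandin F2 alpha, measured 2.65 CPM for H3WT and 6.73 CPM for H3R26C under DMSO, and 19.0 and 47.4 CPM after 5-Aza. Its ratio of 5-Aza to DMSO was 7.17 (6.24 to 8.26) in H3WT and 7.04 (6.46 to 7.69) in H3R26C, and its ratio of H3R26C to H3WT was 2.54 (2.18 to 2.98) under DMSO and 2.50 (2.36 to 2.64) after 5-Aza. Pla2g4a, the cytosolic phospholipase that frees arachidonic acid, measured 6.60 CPM under DMSO and 9.54 CPM after 5-Aza for H3WT, then 8.70 and 18.9 CPM for H3R26C, and its ratio of 5-Aza to DMSO was 1.45 (1.30 to 1.61) in H3WT and 2.17 (1.99 to 2.36) in H3R26C. Mgst2, a microsomal enzyme that can also make leukotriene C4, was at 2.14, 4.27, 1.68 and 11.9 CPM in the same order, 2.79 times (2.48 to 3.14) higher in H3R26C than in H3WT after 5-Aza. Ggt5, which trims leukotriene C4 to D4, was at 1.95, 6.22, 1.81 and 8.69 CPM. Mgst1, a related glutathione transferase, was the listed gene that was lower with 5-Aza in H3R26C, at 11.3, 14.7, 32.9 and 9.05 CPM. Its ratio of 5-Aza to DMSO there was 0.275 (0.256 to 0.296). Under DMSO Mgst1 was at least 2-fold higher in H3R26C than in H3WT.

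Outside the rule for naming genes, and picked after their values were seen, Lta4h, which makes leukotriene B4 from the product of Alox5, was at 60.1, 59.5, 62.8 and 72.4 CPM in the same order. Leukotriene receptor genes were listed in a group of 7 that also holds the formyl peptide receptor gene Fpr2. None of these 7 reached a mean of 1 CPM in any comparison, and Cysltr2, with 39 UMIs in H3R26C with 5-Aza, was the one with the most UMIs.

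**Figure D5:**
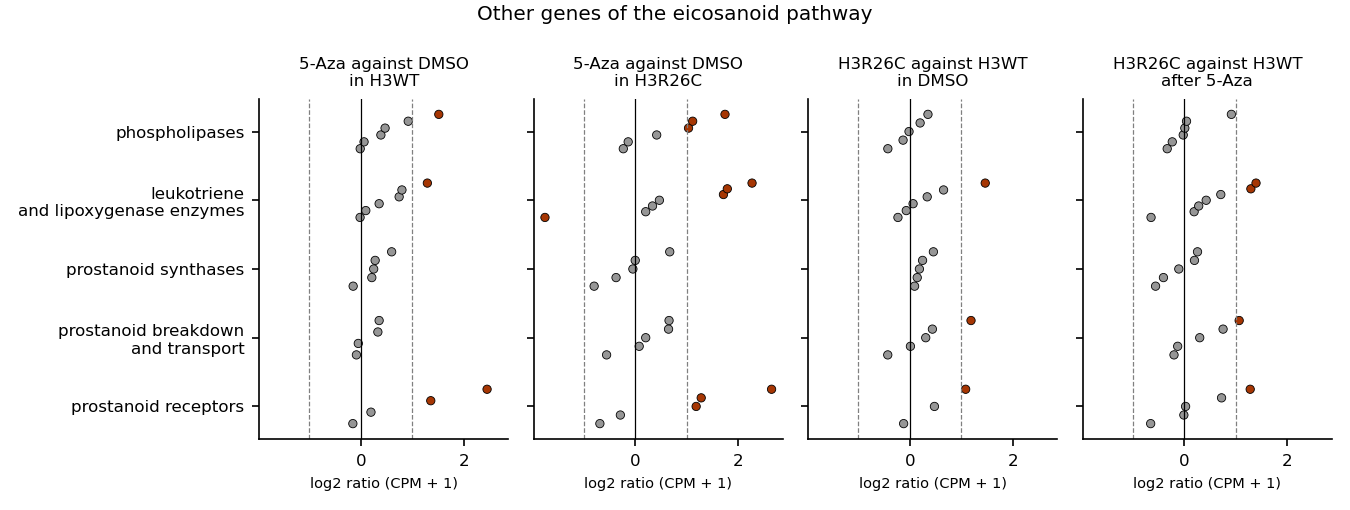
Each point is 1 of the other listed eicosanoid genes whose mean was 1 CPM or more, placed by its log2 ratio of CPM + 1 (horizontal axis) within its group (rows) in the 4 comparisons, with dashed lines at -1 and 1 and red points past them. Prostanoid synthases lie between the lines, and the point farthest to the right for 5-Aza is Ptgfr, at 2.45 in H3WT and 2.65 in H3R26C.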

How the data were processed

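Counts from single-cell RNA-seq (10x Genomics) were analysed for 4 libraries, 1 for each of the 4 conditions. UMI counts were produced by the authors in Cell Ranger (version 6 in the submitters' processing notes, 6.1.0 in the file headers) on the GRCm38 (mm10) reference, used Seurat version 4 for their own analysis, and deposited filtered matrices of counts without normalization for 39891 barcodes. The cell filter of the study was applied here and kept 22049 cells. No doublets were removed and no doublet caller was run.

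Counts of kept cells were summed per library and scaled to CPM. Log2 ratios used a pseudocount of 1 CPM. The floor for a count of 0 was 3 UMIs per library. Gates and shares used cells thinned to 5000 UMIs. Members, lists and gates were chosen with earlier results of these data known, and the bins by marker count and by Enpp2 after values were seen. Besides the members, at most 12 listed pathway genes with at least 5 CPM in a library and a log2 ratio of at least 1 in size are named, and for members of at least 5 CPM the genes with the highest r (0.2 or more, genes of at least 20 CPM). One listed gene (Dpep2) with 2 gene identifiers was left out. The ratios with their intervals, the counting of genes at least 2-fold apart and the thinning were tested on simulated Poisson counts. These hold no spread between cells or cultures beyond counting error. Gates, marker bins and r were not tested in this way. Positions are from GENCODE M21 and promoters from RefSeq. Alternatives changed the pseudocount, scaling, cell filter, thinning, CPM minimum, fold and the cells included. Python 3.11.15, numpy 2.4.6, scipy 1.17.1, pandas 2.3.3 and matplotlib 3.10.9 were used.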

Additional observations from a re-analysis of the deposited data

Results flagged for a closer look

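Barcodes that the cell filter left out are used in no comparison, and in the H3R26C library treated with 5-Aza 2 genes were higher there than in the kept cells and than in the barcodes left out of the DMSO library. Alox5 was at 9.96 CPM (7.77 to 12.6, 70 UMIs) in the 4491 barcodes left out, against 2.28 CPM in the kept cells, and the barcodes left out of the H3R26C DMSO library had 0 UMIs of it. Muscle markers were also high in such barcodes, at 18857 CPM in those of fewer than 1000 UMIs. All kept cells of this library held 2762 CPM, and those outside the muscle gate 456 CPM. The number of Alox5 UMIs per 10000 muscle marker UMIs was 6.31 (3.80 to 9.86) in barcodes of fewer than 1000 UMIs. It was 4.54 (3.14 to 6.34) in barcodes of 1000 or more but under 5000 UMIs. Among kept cells it was 7.03 (6.05 to 8.13) inside and 14.9 (11.6 to 18.8) outside the muscle gate. The barcodes of fewer than 1000 UMIs and of 1000 or more but under 5000 held 19 and 34 of the 70 Alox5 UMIs left out. The others lay in barcodes of 5000 or more UMIs that failed the limit on genes or mitochondrial UMIs, with up to 5 in 1 barcode. No level was calculated for those alone, and the part of muscle RNA in the Alox5 level of the barcodes left out was not tested. Ptgs2 was at 9.39 CPM (7.26 to 11.9, 66 UMIs) in the barcodes left out, against 6.70 CPM (6.23 to 7.20) in the kept cells. These intervals only just separate. In the barcodes left out of the H3R26C DMSO library it was at 0.990 CPM (0.120 to 3.58). In the H3R26C library with 5-Aza, barcodes of fewer than 1000 UMIs had 6.26 CPM of Ptgs2, on 10 UMIs. Those of 1000 or more but under 5000 had 9.60 CPM (7.12 to 12.65, 50 UMIs). For each of these bands the interval overlapped that of the kept cells, so neither alone sets Ptgs2 apart from them.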

How the results depend on the processing

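No paired analysis was possible because a condition is represented by 1 library only, with no pairing in the labels. In no alternative did a member counted as at least 2-fold apart change direction, and no count of lower members changed from 0. With a pseudocount of 5 CPM the counts of higher members became 0 for 5-Aza in H3WT, 1 for 5-Aza in H3R26C, 0 for genotype in DMSO and 3 for genotype after 5-Aza, and with a minimum of 10 CPM they became 0, 2, 0 and 2 in the same order. A pseudocount of 0.1 CPM gave 2 for genotype in DMSO. A fold of 1.5 gave 2 for 5-Aza in H3WT and 3 for genotype in DMSO, and no minimum gave 2 for 5-Aza in H3WT. Leaving out the muscle gate gave 3 for 5-Aza in H3R26C. The other settings kept each of these counts within 1.5 times its value, including those added after the data were seen, which left out the interferon gate or the top cell of each member. Single members still dropped out within that range. Ptges was lost for 5-Aza in H3R26C with thinned cells, and Ptgs2 for genotype after 5-Aza without cycling cells. Alox5 was lost in both of these comparisons with the mean of per-cell CPM, and for genotype after 5-Aza without the muscle gate. Of 352 log2 ratios of single members under these settings, 277 stayed within the counting interval and 75 moved outside it, and of 128 shares of cells 75 stayed and 53 moved. The levels of Alox5, Ltc4s and Ptger4 with DMSO, and that of Ptges in H3WT with DMSO, rest on 12 UMIs or fewer, which is what depth limits here.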
